A study of Homo sapiens with 8 samples.

Results

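The AP-1 and immediate early transcription factors are described here as 10 genes, taken by their symbols from the gene lists of all libraries: the FOS family genes FOS, FOSB, FOSL1 and FOSL2, the JUN family genes JUN, JUNB and JUND, the zinc finger genes EGR1 and EGR3, and IER3. They are 10 of 23228 genes listed, and all 10 passed the filter on low counts that left 13694 genes for testing. The members were chosen with earlier results of these data known, so the shares of members called are descriptions. BT-549 cells, an established line of triple negative breast cancer, were grown in RPMI medium with serum and treated for 24 h. The groups were vehicle (DMSO), EC359 at 100 nM, the histone deacetylase inhibitor (HDACi) vorinostat at 10 µM, and the combination of EC359 and vorinostat at the same concentrations. EC359 inhibits the leukemia inhibitory factor receptor, LIFR, and the study asked how it changes the response of these cells to HDACi. Total RNA of 2 libraries per group was sequenced, 8 libraries in all. All of them come from 1 cell line and 1 time point, and the labels do not say whether the libraries of a group are separate cultures, so p-values measure the spread between these libraries only.

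AP-1 is a dimer of basic leucine zipper (bZIP) proteins. FOS family proteins do not pair with each other and bind DNA as dimers with a JUN protein, whereas JUN proteins can also pair among themselves. FOS, FOSB, EGR1 and EGR3 are textbook immediate early genes, which serum, growth factors and stress switch on within minutes through MAP kinases, the serum response factor SRF and its ternary complex partners, and which normally fall back soon afterwards. FOSL1 and FOSL2 lack the strong activation domain of FOS and FOSB, and FOSL1 is well known as a gene of mesenchymal breast cancer cells. EGR1 and EGR3 bind GC-rich sites and are held in check by the corepressors NAB1 and NAB2. IER3 is an early stress response gene that modulates apoptosis and ERK signalling and, unlike the others, does not encode a DNA-binding transcription factor.

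The promoters of 4 of the members, FOS, FOSB, EGR1 and JUN, are shown with the short response elements found in them. Each line gives the 250 bases before the RefSeq start on the coding strand, 5′ to 3′, placed on GRCh37 by an exact match at 1 position: chr14:75745281-75745530 (+) for FOS, chr19:45971004-45971253 (+) for FOSB, chr5:137800918-137801167 (+) for EGR1 and chr1:59249720-59249969 (-) for JUN. Capitals mark TGACGT, the core of the cyclic AMP response element (CRE), on either strand, the TATA box TATAAA, the CArG box of the serum response element, and the AP-1 octamer TGACATCA.
FOS: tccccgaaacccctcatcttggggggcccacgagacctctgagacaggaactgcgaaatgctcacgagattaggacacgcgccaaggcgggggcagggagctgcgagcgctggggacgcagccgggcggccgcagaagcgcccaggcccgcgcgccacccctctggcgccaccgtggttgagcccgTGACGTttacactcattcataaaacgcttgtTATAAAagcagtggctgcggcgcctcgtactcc
FOSB: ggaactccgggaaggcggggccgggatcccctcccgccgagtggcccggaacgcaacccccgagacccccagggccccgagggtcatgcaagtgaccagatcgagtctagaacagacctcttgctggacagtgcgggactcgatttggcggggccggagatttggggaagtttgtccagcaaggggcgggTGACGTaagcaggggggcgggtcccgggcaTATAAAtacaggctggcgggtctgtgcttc
EGR1: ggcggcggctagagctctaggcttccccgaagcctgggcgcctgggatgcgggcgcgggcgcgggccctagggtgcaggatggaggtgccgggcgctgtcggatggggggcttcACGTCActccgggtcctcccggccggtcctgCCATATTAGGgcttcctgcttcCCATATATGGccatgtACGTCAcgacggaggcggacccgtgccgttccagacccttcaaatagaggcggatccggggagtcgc
JUN: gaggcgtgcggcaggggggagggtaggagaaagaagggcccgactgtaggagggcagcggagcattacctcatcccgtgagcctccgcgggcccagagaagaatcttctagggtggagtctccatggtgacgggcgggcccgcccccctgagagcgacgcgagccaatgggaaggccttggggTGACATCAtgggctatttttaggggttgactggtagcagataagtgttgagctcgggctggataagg
The TGACGT core stood 64 bases before the start of FOS and 60 bases before that of FOSB, with TATAAA at 33 and 30 bases. EGR1 held 2 CArG boxes, 105 and 83 bases before its start, with a TGACGT core on either side at 136 and 67 bases. The JUN octamer lay 67 bases before the start. Of the 10 members 7 had a RefSeq promoter in the table used, all but FOSL1, EGR3 and IER3.

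9 motifs were searched on both strands of these windows. TGACGT was in 5 of the 7 promoters (FOS, FOSB, FOSL2, JUND and EGR1), against 7.10% of all 35116 RefSeq promoters of that length. The full CRE TGACGTCA, which contains the TGACGT core on each strand, was in JUND only and in 1.65% of all promoters. TATAAA was in 3 (FOS, FOSB and JUNB) against 10.7%, the CArG box in EGR1 against 1.16%, and TGACATCA in JUN against 2.37%. The TPA response element TGANTCA was not among the letters of any of the 7 windows and was in 6.57% of all promoters. GGGCGG, the GC box, was in 5 of the 7 and in 42.6% of all, the EGR motif GCGNGGGCG in EGR1 and in 8.41%, and the STAT motif TTCNNNGAA in EGR1 and in 6.57%. These matches are letters in a window and were not tested as binding sites. Sequence more than 250 bases before the start was not searched, so a motif without a match here may still lie further upstream.

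The 10 genes are compact. On GRCh37, in GENCODE annotation, FOS spans chr14:75745529-75748933, FOSB chr19:45971253-45978437, FOSL1 chr11:65659520-65668044, FOSL2 chr2:28615315-28640184, JUN chr1:59242517-59249720, JUNB chr19:12902300-12904129, JUND chr19:18390504-18392432, EGR1 chr5:137801168-137804992, EGR3 chr8:22545172-22550993 and IER3 chr6:30710976-30712325. Their median span was 4823.5 bases against 33649 bases over the 11753 tested genes matched to the annotation (85.8%), and all 10 were shorter than that median. The members as a set were near all tested genes in ATTTA pentamers per kb of 3′ untranslated region, with a median of 1.62 against 1.72. Of the 10, 5 were above the median tested gene, the share a median implies, led by IER3 with 8.14 and FOS with 6.20. The nonamer TTATTTATT was in the 3′ untranslated regions of FOS and FOSL2, that is in 2 of 10, and in 9.74% of tested genes. FOSB overlaps ERCC1, JUNB overlaps HOOK2, and FOSL2, EGR3 and IER3 overlap long noncoding RNAs, all on the opposite strand, and FOSL2 also one on its own strand. These overlaps are those of GENCODE, whereas the counts were made over RefSeq genes. Whether the counting used strand is not stated. If it did not, reads in a stretch shared with an opposite-strand partner could not be assigned where that partner was counted too. How many reads this touches was not tested.

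Between 19069450 and 24759041 reads per library fell on genes, 85.1% to 88.1% of those counted. The mesenchymal markers VIM, FN1, CD44 and SPARC summed to between 9037 and 17030 normalized CPM (read counts scaled to library size and by TMM, edgeR's correction for library composition) in a library. Singly, VIM ranged from 2056 to 9442, FN1 from 1879 to 4588, CD44 from 763.5 to 2224 and SPARC from 903 to 3460. ESR1 stayed at or below 1.02 CPM and PGR at or below 0.0511, while ERBB2 ranged from 12.03 to 102. The luminal markers GATA3, CDH1 and EPCAM reached at most 3.32, 2.21 and 4.27 CPM. Of the 5 of these 6 genes that were tested, 2 were called higher and 1 lower than in vehicle after vorinostat, as in the combination. Of all tested genes 30.1% and 34.8% were called in these 2 comparisons. Of 5 markers of leukocytes and endothelium, PTPRC, CD3E, PECAM1 and VWF stayed at or below 0.708 CPM and CD68 ranged from 39.8 to 267, a movement whose part in the results was not tested. Libraries of a group differed in log2 CPM with an SD over genes of 0.312 to 0.563, the most in EC359. LIFR RNA averaged 25.7 CPM in vehicle, 15.4 with EC359, 80.7 after vorinostat and 119 in the combination.

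Within the FOS family, vorinostat took FOS up and FOSL1 down, and EC359 moved FOSL1 the other way. FOS stood at 12.7 and 9.76 normalized CPM in vehicle, 7.55 and 7.76 with EC359, 98.4 and 105 after vorinostat, and 243 and 236.5 in the combination. Its groups did not overlap, and the combination mean was 31.3 times the EC359 mean, the lowest. With 2 libraries per group such separation is a description only, and its share over all tested genes was not counted. FOSB, a close relative of FOS, was at 2.74 and 2.48 CPM in vehicle, 6.27 and 4.16 with EC359, 9.62 and 7.95 after vorinostat, and 41.5 and 57.3 in the combination. Every FOSB group lay above the one before it in that order. FOSL1 gave 107.6 and 87.2 CPM in vehicle, 551 and 304 with EC359, 7.25 and 6.16 after vorinostat, and 100.7 and 133 in the combination. The EC359 libraries of FOSL1 were 1.81-fold apart, both above all other libraries, and the vehicle and combination libraries overlapped. FOSL2, the remaining FOS relative, read 164 and 154 CPM in vehicle, 226 and 202 with EC359, 141 and 140.4 after vorinostat, and 137 and 140.2 in the combination. FOSL2 varied least of the 10 members, by 1.55-fold between the highest and lowest group means. FOSL1 varied by 63.8-fold, the most in the FOS family, and EGR3 by 143-fold, the most of the 10.

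The JUN family was high in every library. JUN, the prototype of the family, was at 309 and 300.4 CPM in vehicle, 567 and 598 with EC359, 533 and 528 after vorinostat, and 1141 and 1152 in the combination. The single agents gave JUN levels close to each other but without overlap, and the combination stood apart at 3.76 times vehicle. JUNB, often a weaker activator than JUN, was at 169 and 174 CPM in vehicle, 136 and 142 with EC359, 541 and 539.9 after vorinostat, and 418 and 450.5 in the combination. JUNB was the only member whose highest group was vorinostat alone. JUND, the least inducible JUN gene in most cells, was at 134 and 147 CPM in vehicle, 134 and 171 with EC359, 421 and 379.5 after vorinostat, and 455 and 535 in the combination. Its vehicle and EC359 libraries overlapped, and its vorinostat and combination libraries were all above them.

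EGR1 stood at 42.1 and 32.9 CPM in vehicle, 22.8 and 16.1 with EC359, 74.1 and 80.7 after vorinostat, and 298 and 355.5 in the combination. EGR3 was close to silent outside the combination. It had 8 and 5 reads (0.378 and 0.234 CPM) in vehicle, 5 and 4 reads (0.206 and 0.203 CPM) with EC359, 30 and 63 reads (1.54 and 2.68 CPM) after vorinostat, and 494 and 654 reads (25.3 and 33.4 CPM) in the combination. Both EGR genes thus had the order EC359, vehicle, vorinostat, combination from low to high, as FOS did, though the EGR3 step from EC359 to vehicle rests on these few reads. IER3 gave 55.9 and 56.1 CPM in vehicle, 258 and 275 with EC359, 333 and 339 after vorinostat, and 1258 and 1261 in the combination. Its replicates were nearly equal, and each group lay above the one before it.

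**Figure D1:**
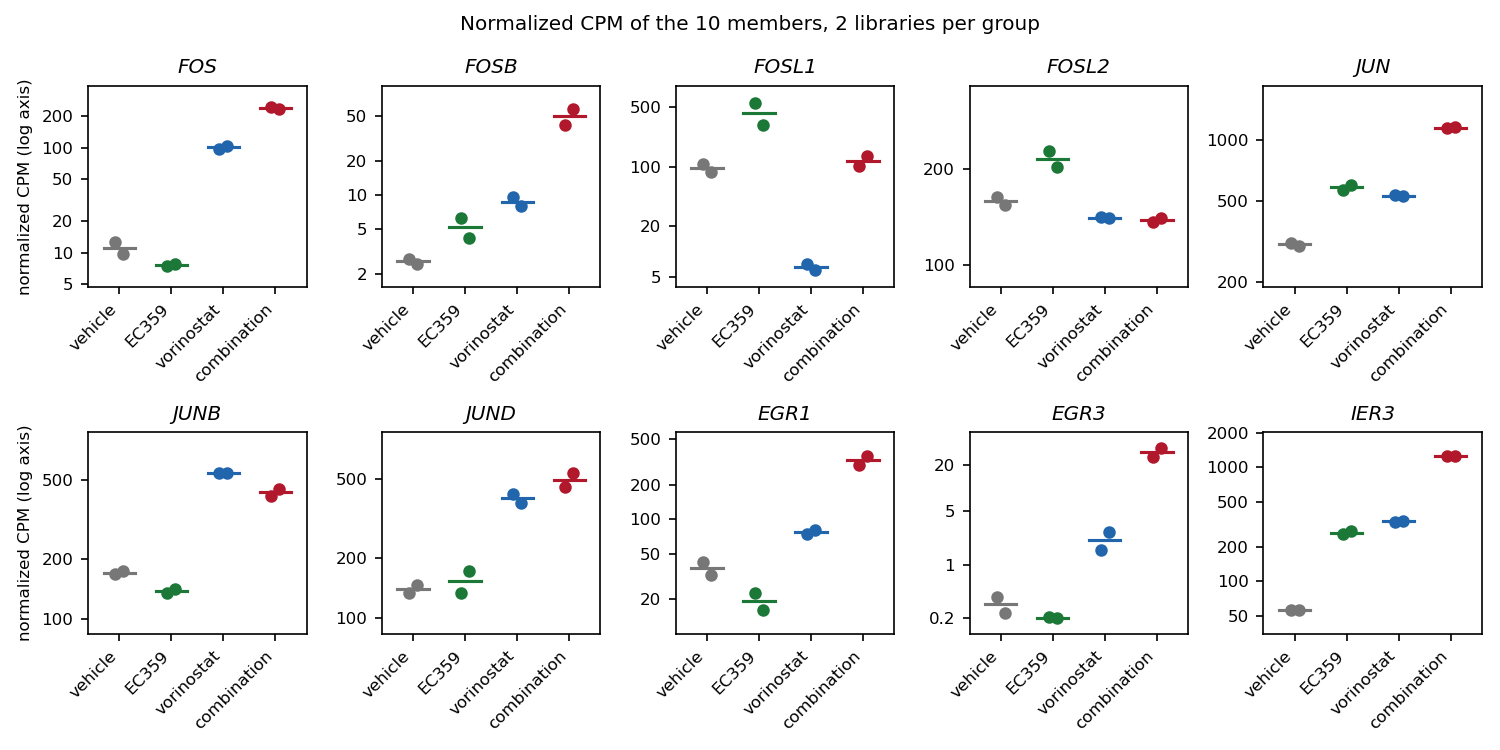
Normalized CPM (log axis) of the 10 members in vehicle, EC359, vorinostat and the combination. Points are the 2 libraries of a group and bars their mean. FOSL1 falls to 6.71 CPM after vorinostat and reaches 428 with EC359, while FOS, FOSB, JUN, JUND, EGR1, EGR3 and IER3 are highest in the combination.

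Levels of different genes were compared per kb of exon (RPKM). In vehicle the order from the top was JUNB at 93.8 ± 2.02 RPKM (SD, n = 2), JUN at 84.1 ± 1.74, JUND at 72.7 ± 4.80, FOSL1 at 51.6 ± 7.65 and IER3 at 41.5 ± 0.109. FOSL2 at 22.2, EGR1 at 11.95, FOS at 3.53, FOSB at 0.469 and EGR3 at 0.0607 RPKM followed. With the combination IER3 led at 933 ± 1.57 RPKM, followed by JUN at 316 ± 2.04, JUND at 257 ± 29.4 and JUNB at 237 ± 12.7, the last pair with overlapping libraries. EGR1 at 104 ± 13.0 and FOS at 75.3 ± 1.44 RPKM now stood above FOSL1 at 61.9 ± 12.1. FOSB reached 8.90 RPKM and EGR3 5.83.

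With EC359 alone, 2 of the 10 members rose, FOSL1 and IER3. The comparison asks what the LIFR inhibitor EC359 does without an HDACi. Calls needed edgeR's quasi-likelihood test to pass at an adjusted p under 0.01 with a log2 change beyond 1 in size. Of all tested genes 3.67% were called, 1.94% higher and 1.72% lower, and 7.82% passed on p alone. FOSL1 was higher by 2.14 on the log2 scale (SE 0.26, 4.39-fold, adjusted p = 0.00069). Without vehicle replicate 2 the FOSL1 change was 2.00 with an adjusted p of 0.015, above the threshold, and without EC359 replicate 1 it was 1.65 (adjusted p = 3.1e-06). IER3 was higher by 2.25 (SE 0.08, 4.76-fold, adjusted p = 1.2e-06). A further 2 members passed the p threshold with a change under the fold threshold, JUN at 0.93 (SE 0.07, adjusted p = 6.5e-05) and EGR1 at -0.94 (SE 0.18, adjusted p = 0.0087). FOSB at 1.01 (adjusted p = 0.033), FOS at -0.55 (0.026), FOSL2 at 0.43 (0.012) and JUNB at -0.30 (0.036) missed it. JUND differed by 0.12 (95% interval -0.18 to 0.43, adjusted p = 0.57) and EGR3 by -0.56 (-2.04 to 0.92, adjusted p = 0.6). Without EC359 replicate 1 or 2 the FOSB change was 0.68 or 1.27, and the EGR1 change -1.22 or -0.70. EGR1 missed the p threshold with a block for replicate number (-0.94, adjusted p = 0.013). In a fit of the 4 libraries alone EGR1 (-0.92, adjusted p = 0.07) and FOSB (1.03, adjusted p = 0.096) both missed it. With DESeq2 both passed it, EGR1 at -0.93 (adjusted p = 2e-05) and FOSB at 1.02 (adjusted p = 0.0048).

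Vorinostat moved most of the members. Against vehicle, 7 of 10 rose and FOSL1 fell, in a comparison in which 30.1% of all tested genes were called, 16.8% higher and 13.3% lower, and 52.1% passed on p alone. The rises were 3.18 for FOS (SE 0.13, 9.06-fold, adjusted p = 2.6e-07), 2.79 for EGR3 (SE 0.42, 6.89-fold, adjusted p = 0.00036), 2.59 for IER3 (SE 0.08, 5.999-fold, adjusted p = 1.1e-07) and 1.75 for FOSB (SE 0.26, 3.36-fold, adjusted p = 3e-04). JUNB rose by 1.66 (adjusted p = 6.2e-07), JUND by 1.51 (adjusted p = 1.4e-05) and EGR1 by 1.05 (adjusted p = 0.00071). FOSL1 fell by 3.86 on the log2 scale (SE 0.30, 14.6-fold lower, adjusted p = 6e-06), which makes it the member with the largest change in either direction here. JUN differed by 0.80 (adjusted p = 1.8e-05), under the fold threshold, and FOSL2 by -0.17 (95% interval -0.38 to 0.03, adjusted p = 0.12). The EGR1 call was lost without vehicle replicate 2 (0.87, adjusted p = 0.011) and without vorinostat replicate 2 (0.97, adjusted p = 0.0074).

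With the combination, 8 of 10 members were above vehicle, and 34.8% of all tested genes were called, 19.5% higher and 15.3% lower, with 56.4% past the p threshold alone. EGR3 showed the largest rise, 6.56 on the log2 scale (SE 0.35, 94.3-fold, adjusted p = 5.3e-07), from 8 and 5 reads. IER3 rose by 4.49 (22.5-fold, adjusted p = 1.1e-08), FOS by 4.42 (21.3-fold, adjusted p = 4.2e-08), FOSB by 4.24 (18.9-fold, adjusted p = 9.8e-07) and EGR1 by 3.12 (8.71-fold, adjusted p = 9.6e-07). The JUN genes rose less, JUN by 1.91 (3.76-fold), JUND by 1.82 (3.53-fold) and JUNB by 1.34 (2.53-fold), with adjusted p between 1.2e-07 and 3.7e-06. FOSL1 differed from vehicle by 0.26 (95% interval -0.31 to 0.83, adjusted p = 0.38), and FOSL2 by -0.20 (-0.41 to 0.01, adjusted p = 0.079). The median of the 10 log2 changes was 2.52, against 0.07 over all tested genes.

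Adding EC359 to vorinostat raised 7 of the 10 members over vorinostat alone, where 4.25% of all tested genes were called, 3.37% higher and 0.876% lower, and 13.7% passed on p alone. FOSL1 rose the most, by 4.13 (SE 0.30, 17.4-fold, adjusted p = 3.1e-05), to libraries that overlapped vehicle. EGR3 rose by 3.78 (SE 0.27, 13.7-fold, adjusted p = 2.6e-05), FOSB by 2.49 (5.63-fold, adjusted p = 0.00011), EGR1 by 2.08 (4.22-fold, adjusted p = 8.1e-05) and IER3 by 1.91 (3.75-fold, adjusted p = 9.1e-07). FOS rose by 1.24 (2.35-fold, adjusted p = 0.00014) and JUN by 1.11 (2.16-fold, adjusted p = 2.2e-05). The 3 members that were not called were JUND at 0.31 (95% interval 0.00 to 0.61, adjusted p = 0.12), FOSL2 at -0.03 (-0.23 to 0.18, adjusted p = 0.86) and JUNB at -0.32 (-0.50 to -0.13, adjusted p = 0.02). The 7 calls held in every alternative run on them, with changes of 1.02 to 4.27.

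Against EC359 alone, the combination raised 7 members and lowered FOSL1, with 33.7% of all tested genes called, 19.8% higher and 13.9% lower, and 55.8% past the p threshold alone. EGR3 rose by 7.12 (SE 0.37, adjusted p = 5.4e-07) from 5 and 4 reads. FOS rose by 4.97 (SE 0.14, 31.3-fold, adjusted p = 4.4e-08), EGR1 by 4.06 (16.7-fold, adjusted p = 3.8e-07), FOSB by 3.23 (9.40-fold, adjusted p = 3.4e-06) and IER3 by 2.24 (4.72-fold, adjusted p = 1.1e-07). JUND rose by 1.70 and JUNB by 1.64. FOSL1 fell by 1.87 (3.66-fold lower, adjusted p = 0.00018). JUN at 0.98 (adjusted p = 4.6e-06) and FOSL2 at -0.63 (adjusted p = 0.00025) passed the p threshold only. This comparison and the 2 before it share the combination libraries, as the 3 comparisons with vehicle share the vehicle libraries.

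EC359 changed FOS and EGR1 differently with and without vorinostat. The interaction is the log2 change that EC359 made on top of vorinostat minus the one it made alone, tested at an adjusted p under 0.01, and 2.10% of all tested genes passed, 1.62% above and 0.482% below 0. For EGR1 it was 3.02 (SE 0.26, 95% interval 2.44 to 3.595, adjusted p = 0.00031), from an EC359 change of -0.94 alone to 2.08 with vorinostat. For FOS it was 1.79 (SE 0.18, 1.38 to 2.20, adjusted p = 0.00083), from -0.55 to 1.24. The FOS value missed the threshold without vorinostat replicate 1 (1.68, adjusted p = 0.014), without combination replicate 1 (1.72, adjusted p = 0.015) and without combination replicate 2 (1.75, adjusted p = 0.012). EGR1 passed without each library in turn, with values from 2.78 to 3.30.

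The other 8 members did not pass. EGR3 at 4.34 (95% interval 2.66 to 6.02, adjusted p = 0.011), FOSL1 at 1.99 (1.12 to 2.86, adjusted p = 0.018) and FOSB at 1.49 (0.70 to 2.27, adjusted p = 0.039) had intervals above 0. FOSL2 was at -0.46 (adjusted p = 0.073) and IER3 at -0.35 (-0.59 to -0.10, adjusted p = 0.1). The JUN family values had intervals that included 0, with JUN at 0.18 (-0.06 to 0.42, adjusted p = 0.37), JUND at 0.18 (-0.25 to 0.61) and JUNB at -0.01 (-0.28 to 0.25). Without EC359 replicate 1 or 2 the interaction was 4.34 or 4.31 for EGR3, 2.48 or 1.62 for FOSL1 and 1.82 or 1.225 for FOSB. That of FOSL2 was then -0.37 or -0.54, and that of IER3 -0.39 or -0.31. EC359 was the group whose libraries differed most (SD over genes 0.563). Over all alternatives run, EGR3 ranged from 3.955 to 4.753, FOSL1 from 1.619 to 2.481 and FOSB from 1.175 to 1.821. FOSL2 ranged from -0.543 to -0.372 and IER3 from -0.421 to -0.308.

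**Figure D2:**
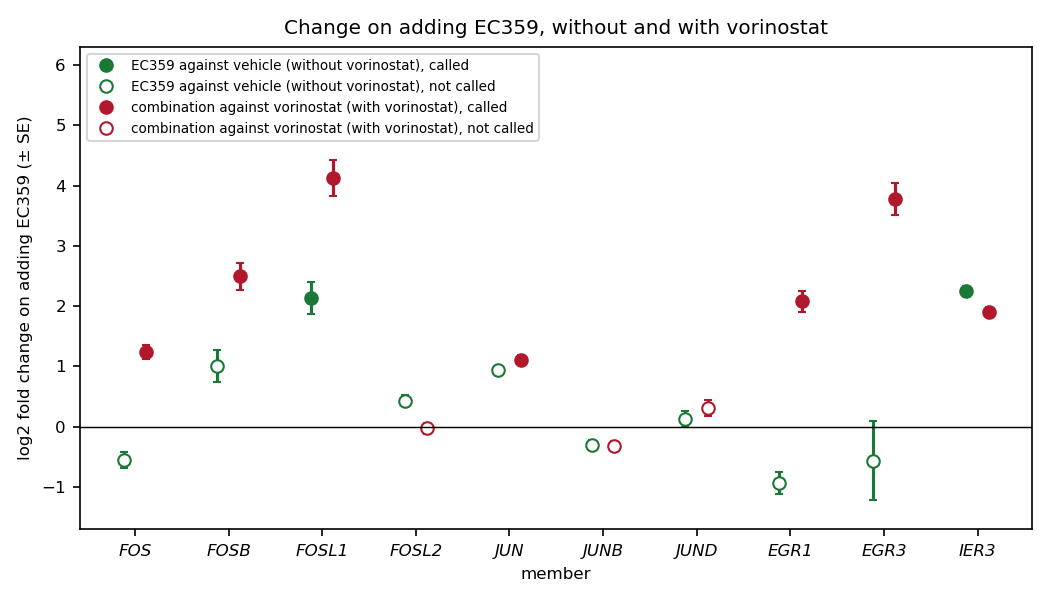
Log2 change made by EC359 alone (EC359 against vehicle) and on top of vorinostat (combination against vorinostat) for each member. Bars are the standard error and filled points are called. EGR1 goes from -0.94 to 2.08 and FOS from -0.55 to 1.24, while JUN is at 0.93 and 1.11.

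The makeup of the FOS family shifted with treatment, which is given as a description. In vehicle FOSL1 made up 66.2% ± 1.96 (SD, n = 2) of the family's reads per kb, FOSL2 28.7% ± 2.23, FOS 4.51% ± 0.301 and FOSB 0.605% ± 0.0291. With EC359 the FOSL1 share was 86.5% ± 3.92 and the FOS share 0.994% ± 0.382. With vorinostat FOS made up 56.3% ± 1.88, FOSL2 34.7% ± 0.663 and FOSL1 6.27% ± 0.806. With the combination FOS held 45.7% ± 4.45, FOSL1 37.3% ± 4.38, FOSL2 11.7% ± 0.721 and FOSB 5.35% ± 0.797. Per kb, FOSL1 was the leading FOS gene in vehicle and EC359, and FOS the leading one in both groups with vorinostat. In reads not divided by length FOSL2 led instead in vehicle (159 CPM, FOSL1 97.4) and with vorinostat alone (141 CPM, FOS 102). The summed FOS family level was 77.8 ± 9.26 RPKM in vehicle, 259.9 ± 95.1 with EC359, 56.8 ± 0.793 after vorinostat and 165 ± 13.0 in the combination.

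The JUN family was more evenly split. JUN, JUNB and JUND held 33.6%, 37.4% and 29.0% of the family's reads per kb in vehicle, and 50.9%, 24.1% and 25.0% with EC359. With vorinostat JUNB led with 45.5%, and JUN had 22.6%. With the combination JUN led again with 39.1%, followed by JUND with 31.6% and JUNB with 29.3%. The summed level went from 251 ± 5.08 RPKM in vehicle to 316 ± 22.2 with EC359, 649 ± 16.6 after vorinostat and 810 ± 44.1 in the combination. Without division by length the FOSL1 share in vehicle was 35.95% and the JUN share 49.45%, so the shares rest on the exon lengths used.

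**Figure D3:**
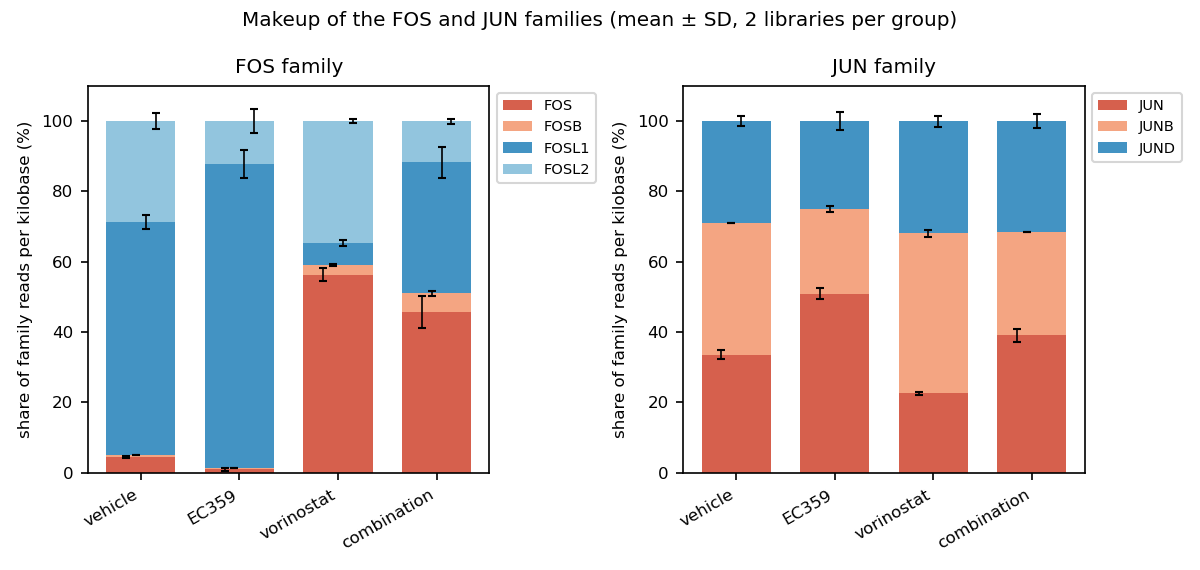
Share (%) of each gene in the summed reads per kb of the FOS family (left) and the JUN family (right), as stacked means of 2 libraries per group with bars for the SD of each share. FOSL1 takes 66.2% of the FOS family in vehicle and 6.27% with vorinostat, where FOS takes 56.3%.

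Other bZIP genes whose proteins can pair with FOS or JUN proteins were tested as a list of 14, of which 13 passed the filter. This list and those that follow were, like the 10 members, chosen with earlier results of these data known, so their shares are descriptions. With EC359, 3 of the 13 rose, MAFF, ATF3 and MAFG, where 1.94% of all tested genes were called higher. MAFF, a small MAF protein without an activation domain, rose by 1.99 (SE 0.11, adjusted p = 6.1e-06), from a mean of 20.4 to 80.8 CPM. ATF3, a stress-induced partner of JUN, rose by 1.21 (SE 0.12, adjusted p = 2e-04), from 15.8 to 36.5 CPM, a call lost in a fit of the 4 libraries alone (1.23, adjusted p = 0.011). With vorinostat 5 rose and JDP2 fell, and with the combination 8 rose and JDP2 fell, where 30.1% and 34.8% of all tested genes were called. MAFA rose by 4.86 with the combination (SE 0.22, adjusted p = 2.1e-07), from 0.822 to 24.0 CPM, and ATF3 by 4.06 (SE 0.13, adjusted p = 4.4e-08), to 263 CPM. JDP2, a repressor of AP-1 sites, fell by 3.28 (9.69-fold lower, adjusted p = 5.6e-06), from 13.7 to 1.41 CPM. Of the 13, MAFF had an interaction past the threshold (2.00, adjusted p = 0.00017), as did 2.10% of all tested genes, at 20.4, 80.8, 11.2 and 178 CPM in vehicle, EC359, vorinostat and the combination. ATF2 and ATF7, which pair with JUN, changed by less than 2-fold in each of the 5 comparisons.

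Of 36 other immediate early genes tested, a list that shares ATF3 and MAFF with the bZIP partners and SRF with the list that follows, 28 rose and 2 fell with the combination, where 34.8% of all tested genes were called. Their median log2 change was 2.53, close to the 2.52 of the members. ARC, a synaptic immediate early gene, rose by 9.87 (SE 0.32, adjusted p = 5.2e-08), from 0.142 and 0.701 CPM in vehicle to 395 and 406. NR4A3, an orphan nuclear receptor, rose by 6.14 (SE 0.24, adjusted p = 9e-08), and IER5L and PLK2 fell by 2.24 and 1.41. With vorinostat 20 rose and 1 fell, and with EC359 7 rose and 2 fell, where 30.1% and 3.67% of all tested genes were called. The largest rises with EC359 were NR4A2 at 2.61 (adjusted p = 0.003) and the GTPase gene GEM at 2.11 (adjusted p = 1.7e-05). The genes that fell were the polo-like kinase PLK2 at -1.504 (adjusted p = 6.5e-06) and GADD45B at -1.29 (adjusted p = 0.00017). The NR4A2 call was lost without vehicle replicate 2 (1.94, adjusted p = 0.015), and in a fit of the 4 libraries alone those of NR4A2 (2.64, adjusted p = 0.046) and GADD45B (-1.27, adjusted p = 0.015) were. Over vorinostat alone, the combination raised 15 and lowered 2 of the 36, and 7 had an interaction past the threshold, all above 0, where 4.25% of all tested genes were called and 2.10% had such an interaction, 1.62% above 0.

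A list of genes for SRF, its partners, MAP kinases and related regulators was called at shares near or below those of all genes. The list of 22 holds SRF and its coactivators, ternary complex factors, MAP kinases and RPS6K kinases, CREB1, FBXW7 and the EGR corepressor genes NAB1 and NAB2. Of these 22, 1 was called with EC359, 5 after vorinostat and 4 in the combination, that is 4.55%, 22.7% and 18.2%, against 3.67%, 30.1% and 34.8% of all tested genes. ELK3, a ternary complex factor, rose with EC359 by 1.71 (SE 0.23, adjusted p = 0.0012), a call lost without vehicle replicate 1 (1.79, adjusted p = 0.017), without vehicle replicate 2 (1.65, adjusted p = 0.022) and in a fit of the 4 libraries alone (1.73, adjusted p = 0.021). With the combination the kinase genes RPS6KA5 and RPS6KA1 rose by 1.89 and 1.57, and RPS6KA4 fell by 1.47. NAB1 and NAB2 were not called in any of the 5 comparisons.

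Genes that AP-1 is known to regulate, mostly of proteases, cytokines and growth factors, were tested as a list of 20, of which 19 passed the filter. With EC359 12 of the 19 rose, where 1.94% of all tested genes were called higher. As the list was chosen with earlier results of these data known, this share is a description. MMP3, the stromelysin gene, rose by 4.16 (SE 0.18, adjusted p = 2.1e-06), from 1.32 and 2.06 CPM in vehicle to 29.6 and 30.9. MMP10 had 1 and 2 reads in vehicle and 36 and 15 with EC359, a ratio of 16.5 with a 95% counting interval of 5.33 to 82.5. The adjusted p of MMP10 was 0.0044, and it was 0.048 and 0.037 without vehicle replicate 1 or 2, 0.013 and 0.012 without combination replicate 1 or 2, and 0.035 in a fit of the 4 libraries alone. With vorinostat 6 rose and 3 fell, and with the combination 13 rose and 2 fell, where 30.1% and 34.8% of all tested genes were called. The median log2 change of the list was 1.95 with EC359, 0.04 after vorinostat and 2.70 in the combination. PTGS2, the inducible cyclooxygenase gene, rose by 6.91 with the combination (SE 0.33, adjusted p = 3e-07), and the ratio of MMP10 over vehicle was 147 (49.9 to 716) from 228 and 177 reads. The urokinase gene PLAU fell by 1.30 and the cyclin gene CCND1 by 1.10. Over vorinostat alone 15 of the 19 rose with the combination, and 8 had an interaction past the threshold, 7 above and 1 below 0. Of all tested genes 4.25% were called over vorinostat and 2.10% had such an interaction.

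**Figure D4:**
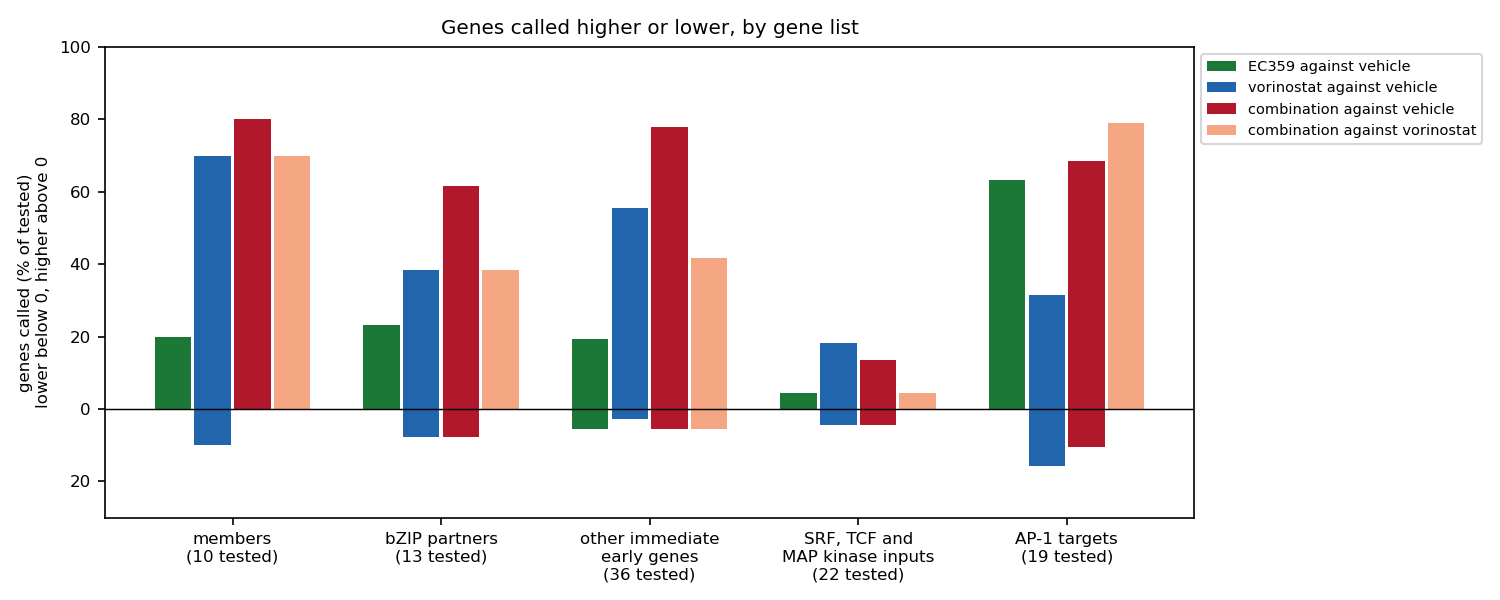
Share of the tested genes of each list that was called higher (above 0) or lower (below 0), in 4 comparisons. Over all tested genes 3.67% were called in EC359 against vehicle, 30.1% in vorinostat against vehicle, 34.8% in combination against vehicle and 4.25% in combination against vorinostat.

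The profiles most like those of the members were sought by the root mean square difference of centred log2 CPM over the 8 libraries, as a description, among 9975 other genes of sufficient level for 9 members and 9976 for EGR3. JUN was followed closely by CCNL1 (0.08), MYC (0.11) and ASNS (0.13), and FOSL2, the flattest member, by GSPT1 (0.06) and PES1 (0.07). JUNB had NUDT6, PLA2G12A and SFXN3 at 0.08 each, and JUND had MAP2K3 (0.09), FTL (0.09) and PPP1R12C (0.10). FOS was nearest to MAFA (0.21), CYP1A1 (0.22) and CRABP2 (0.32), and IER3 to SAT1 (0.30), LOC730755 (0.30) and GFPT2 (0.35). FOSB was nearest to GPRC5A (0.33), MT1X (0.37) and ATF3 (0.38), and EGR1 to CTGF (0.42), HSPA5 (0.46) and PHLDB2 (0.46). FOSL1 and EGR3, the members with the widest range of group means, had the largest differences. These were ROBO4 (0.77), LIF (0.85) and EMP1 (0.86) for FOSL1 and DMKN (0.65) and TFPI2 (0.80) for EGR3. The measure is not scaled to a gene's range, so its size cannot be compared between members. LIF, the ligand of LIFR, averaged 23.3 CPM in vehicle, 116.5 with EC359, 5.21 after vorinostat and 98.3 in the combination.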

How the data were processed

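RNA-seq of BT-549 cells was measured in 8 libraries, 2 per treatment, grouped by the treatment label. The deposited values are raw read counts per gene symbol. The authors ran TopHat2 2.0.8b on single-end reads against hg19 and made the counts over RefSeq genes with HTSeq, whose version and strand setting are not given in the sources used here. Summary lines for reads on no gene (11.0% to 14.2% of reads) or on several genes (0.649% to 0.850%) were left out. Depth limits genes of a few reads, such as EGR3 in vehicle.

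Genes were kept by filterByExpr of edgeR 4.0.16 (R 4.3.3), scaled by TMM and fitted across the 8 libraries with 1 mean per group (common dispersion 0.0135, 4 residual degrees of freedom). Comparisons and the interaction were tested by the quasi-likelihood test, two-sided, with Benjamini-Hochberg adjustment over 13694 genes. The libraries were not paired by replicate number in the main fit, and the block is given among the alternatives. Samples with the same number had deviations correlated by -0.173 to 0.231 between groups. The highest value was for vehicle with EC359. The combination was below 0 with vehicle (-0.100), EC359 (-0.173) and vorinostat (-0.1075). Whether libraries shared a batch, under these or other numbers, cannot be told from the labels. With a library left out, the remaining library of its group was assumed to vary like the others. Other settings were DESeq2 1.42.0, scaling by RLE or by total counts, other filters, 4-library fits and other thresholds, and a crossed block was added after seeing the data. Scripts were tested on simulated data. RPKM used the union of GENCODE exons.

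The members and gene lists were chosen with earlier results of these data known. All 10 members were named in each comparison, and from each other list the 2 called genes with the largest change in each direction with the combination and with EC359, at an average log2 CPM of at least 1. Any bZIP partner, the 3 nearest profiles of a member (average log2 CPM of at least 3) and LIFR could also be named. Some of the nearest profiles are not reported here. MAFG, ATF2, ATF7, CREB1, FBXW7, SRF, NAB1 and NAB2 were named with their lists. Promoter sequences are RefSeq's (GRCh38.p14), matched to GRCh37.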

Additional observations from a re-analysis of the deposited data

Results flagged for a closer look

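The effect of EC359 differed between cells with and without vorinostat for 2 of the 10 members, in a test of the difference itself. The interaction was 3.018 on the log2 scale for EGR1 (adjusted p = 0.00031) and 1.789 for FOS (adjusted p = 0.00083, edgeR quasi-likelihood test). In both genes each combination library was above each vorinostat library, and each EC359 library was below each vehicle library. How many of all tested genes separate in this way was not counted. EGR1 kept an adjusted p of at most 0.0065 in the alternatives run, while that of FOS ranged from 1.8e-13 to 0.015.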

How the results depend on the processing

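The calls of the combination against vehicle, against vorinostat and against EC359 were made for the same members in all refits run, that is other tools, scalings, filters, blocks and libraries left out. For EC359 against vehicle the count of members called was 1 in a fit of the 4 libraries alone, where FOSL1 missed the threshold (2.16, adjusted p = 0.014) and EGR3 was not tested, 4 with no fold threshold, and 1 to 3 with a library left out. The interaction count was 5 with DESeq2, 4 with no filter on low counts, 5 with the crossed block, 5 at an adjusted p under 0.05, and 1 to 6 with a library left out. The cause of these changes was not tested. With the replicate block 3 members had an interaction past the threshold, EGR3 being added (4.35, adjusted p = 0.0093), and over all tested genes 189 did, against 288 without the block, 477 with the crossed block and 686 with DESeq2. The block changed no other call of a member. Directions reversed for JUND with EC359 without EC359 replicate 2 (-0.053, with a library left out -0.053 to 0.295), for FOSL1 with the combination against vehicle without combination replicate 2 (-0.003, range -0.003 to 0.414), and for the JUNB interaction without vehicle replicate 1 (0.003) or EC359 replicate 2 (0.013, range -0.129 to 0.013), none of them called. Of the genes called in the combination against vorinostat 462 were higher and 120 lower, and 380 and 182 with total counts. Of the interactions 222 were above and 66 below 0, and 430 and 256 with DESeq2.

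With reads not divided by length the share of FOS in its family was 4.14% in vehicle and 39.4% with vorinostat, that of FOSL1 35.95% in vehicle, 64.2% with EC359, 2.60% after vorinostat and 21.4% in the combination, and that of JUN 49.45%, 66.7%, 36.1% and 55.3% in the same order of groups. With the longest transcript the FOS share was 6.12% in vehicle, 63.95% with vorinostat and 52.8% with the combination, the FOSL1 share 5.22% with vorinostat and 31.6% with the combination, and the JUN share 36.0%, 53.6%, 24.5% and 41.7%. With 2 libraries per group, and 4 to 8 reads of EGR3 per library in vehicle and EC359, the data allow an EGR3 difference between these groups of -2.04 to 0.92 on the log2 scale.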
